A study of Mus musculus with 12 samples.

Results

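The 7 genes described here, Cd14, Cd68, Emr1, Cd163, Mrc1, Lyzs and Tlr2, are markers of macrophages, which adipose tissue holds among its fat cells. They were taken as every probe whose symbol in the platform annotation is 1 of these names, which gave 8 probes (2 for Cd68) among 29922 probes and 7 of 16675 gene symbols on the array. All 7 genes were above the array floor on at least 3 of the 12 arrays, compared with 8203 of the 16675 symbols. The symbols Emr1 and Lyzs are older names of the genes now called Adgre1 and Lyz2.

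The study asked how mcIRBP, an insulin receptor-binding protein, alters gene expression in normal and in diabetic BALB/c mice. RNA was measured in 4 groups of 3 arrays: normal mice left untreated (normal mock), normal mice given 2.5 nmol mcIRBP (normal mcIRBP), diabetic mice left untreated (diabetic mock) and diabetic mice given 2.5 nmol mcIRBP (diabetic mcIRBP). All normal mice were labelled female and all diabetic mice male, and the labels give no age, so disease state and sex cannot be told apart in any comparison across disease states. For each array 5 ug of total RNA from tissue labelled muscle was labelled with Cy5, a red fluorescent dye. The labels do not say that the arrays of a group came from separate mice, so the p-values measure only the spread between arrays, which may be technical.

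Macrophages take up debris and microbes and sense them through surface receptors. CD14 and TLR2 recognise bacterial lipids and start signalling through NF-kB, while the scavenger receptor CD163 takes up haemoglobin bound to haptoglobin and the mannose receptor MRC1 (CD206) binds sugars on glycoproteins. CD68 is a glycoprotein of late endosomes and lysosomes, EMR1 is the adhesion receptor known as F4/80, and lysozyme M, the product of Lyzs, cleaves bacterial cell walls. In adipose tissue F4/80 and CD68 are commonly used to find macrophages, and resident ones carry CD163 and MRC1.

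The 250 bases before the start of 4 genes are shown from RefSeq (GRCm38.p6) because macrophage genes are known for short purine-rich sites bound by PU.1, the product of Sfpi1, and because the lysozyme pair shares sequence. Mrc1 lies on the plus strand (chr2:14229164-14229413), Cd68 on the minus strand (chr11:69666171-69666420), Lyz2 on the minus strand (chr10:117282273-117282522) and its neighbour Lyz1 on the minus strand (chr10:117292869-117293118). Capitals mark GAGGAA or GGAAGT on either strand in Mrc1, Lyz2 and Lyz1, and TGANTCA, the site known for AP-1, in Cd68, whose window also holds GAGGAA in lower case.
Mrc1: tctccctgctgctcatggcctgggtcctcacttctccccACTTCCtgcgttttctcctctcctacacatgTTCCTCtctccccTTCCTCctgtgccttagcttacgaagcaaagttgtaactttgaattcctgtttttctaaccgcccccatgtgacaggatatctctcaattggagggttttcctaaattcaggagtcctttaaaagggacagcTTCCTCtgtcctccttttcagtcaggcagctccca
Cd68: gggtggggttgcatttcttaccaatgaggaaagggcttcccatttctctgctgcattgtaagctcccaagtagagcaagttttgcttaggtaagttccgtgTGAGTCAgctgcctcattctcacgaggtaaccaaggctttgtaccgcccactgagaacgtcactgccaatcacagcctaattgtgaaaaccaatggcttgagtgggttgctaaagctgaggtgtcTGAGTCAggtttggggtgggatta
Lyz2: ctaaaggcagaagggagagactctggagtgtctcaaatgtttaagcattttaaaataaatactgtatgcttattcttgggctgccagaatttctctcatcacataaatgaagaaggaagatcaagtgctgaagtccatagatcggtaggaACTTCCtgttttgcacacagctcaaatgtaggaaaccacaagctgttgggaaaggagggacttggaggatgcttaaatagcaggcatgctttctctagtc
Lyz1: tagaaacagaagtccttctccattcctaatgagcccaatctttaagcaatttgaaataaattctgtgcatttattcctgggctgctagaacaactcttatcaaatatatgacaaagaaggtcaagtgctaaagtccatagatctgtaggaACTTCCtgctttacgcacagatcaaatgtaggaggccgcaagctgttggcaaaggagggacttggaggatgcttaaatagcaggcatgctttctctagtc
Both strands were searched in each window, and GAGGAA and GGAAGT can overlap by sharing GGAA within them. Of 32851 RefSeq promoter windows of the same length, 23.3% held GAGGAA and 19.7% held GGAAGT. The shares were 6.75% for TGANTCA, 7.25% for the NF-kB consensus and 12.4% for TATAAA. Of the 5 member genes whose window was searched (Cd68, Cd163, Mrc1, Lyz2 and Tlr2), 2 held GAGGAA, 3 held GGAAGT, 1 held TGANTCA, 1 held the NF-kB consensus and 0 held TATAAA. The Tlr2 window (chr3:83841609-83841858) overlaps the gene as annotated, which ends at 83841824 on the minus strand, so its NF-kB and GGAAGT matches lie inside the annotated gene. A match describes letters and shows no binding. The Lyz1 and Lyz2 windows had the same base at 152 of 250 positions (60.8%) and at 92 of the last 100. The array carried a probe for each of these neighbouring lysozyme genes, and whether either probe also binds the other transcript was not tested.

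On GRCm38.p6 the genes lie at chr18:36725064-36726815 (Cd14), chr11:69664213-69666170 (Cd68), chr17:57358581-57483529 (Emr1), chr6:124304636-124330529 (Cd163), chr2:14229414-14332023 (Mrc1), chr10:117277541-117282272 (Lyzs) and chr3:83836272-83841824 (Tlr2). No source used here gives where in these genes the probes bind.

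The labelled tissue and the groups were checked against defining markers before the members were read. Only 1, 1, 5 and 3 of 16 skeletal muscle markers were above the floor on all arrays of normal mock, then of normal mcIRBP, diabetic mock and diabetic mcIRBP, so muscle markers were largely at the floor in RNA labelled muscle. Adipocyte markers were bright, with 10, 10, 12 and 6 of 12 above it in the same order of groups. Of 15 liver markers 14 were above it in normal mock and 1, 2 and 0 in the other groups, and of 15 epididymis markers 13 were above it in diabetic mock, 15 in diabetic mcIRBP and 0 in the normal groups. Each group therefore differed in tissue markers as well as in its label, and every comparison below carries that difference. In such bulk RNA fewer cells of a type and less RNA per cell cannot be told apart.

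Raw intensity was compared with each array's floor, the most frequent log2 raw value of its probes, and a probe counted as above the floor where it exceeded that value by 5 standard deviations of the values mirrored below it. The floor lay at raw intensities of 57.0 to 94.4 on normal mock, 59.6 to 78.6 on normal mcIRBP, 39.6 to 39.8 on diabetic mock and 38.3 to 38.8 on diabetic mcIRBP arrays. The number of probes above it was 2488 to 3824, 4731 to 8248, 10220 to 12451 and 4490 to 8080 in the same order of groups. Of the 7 members 3, 2 and 2 were above it on the normal mock arrays and 6, 7 and 4 on the normal mcIRBP arrays. All 7 were above it on each diabetic mock array, and 5, 5 and 2 on the diabetic mcIRBP arrays. Between the mock groups, the members' detection thus moved with the number of probes detected on each array. The treated groups overlapped in that number (4731 to 8248 and 4490 to 8080), with 6, 7 and 4 members against 5, 5 and 2. The part of the number of probes detected in the results below was not tested.

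**Figure D1:**
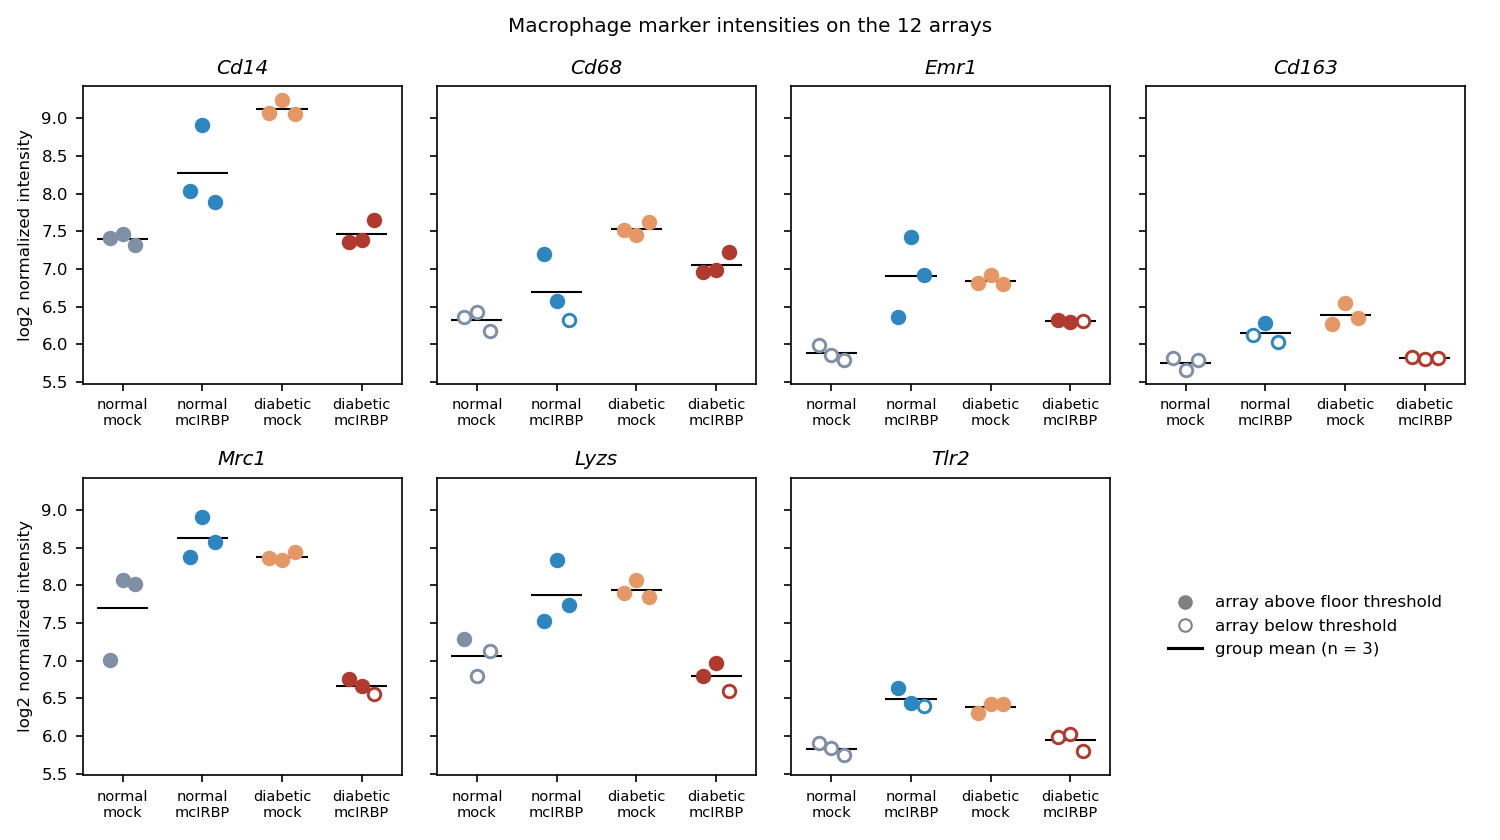
Normalized log2 intensity (vertical axis) of the 7 macrophage markers on the 12 arrays, 3 per group (horizontal axis), with filled points above and open points below the floor threshold and a line at each group mean. The diabetic mock arrays of Cd14 (9.06 to 9.25) lie above all other arrays, and the diabetic mcIRBP arrays of Mrc1 (6.56 to 6.75) lie below all others.

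Among the receptors for microbial lipids, Cd14 was above the floor on all 12 arrays. Its raw intensities were 102, 147 and 95 on normal mock, 280, 857 and 155 on normal mcIRBP, 895, 2107 and 822 on diabetic mock and 170, 161 and 108 on diabetic mcIRBP arrays. Relative to the floor these intensities were 1.56 to 1.67, 2.40 to 10.9, 20.8 to 53.3 and 2.82 to 4.43 times as high. On that scale diabetic mock was highest and its 3 arrays did not overlap any other group. After background correction and quantile normalization the group means were 7.40 ± 0.07, 8.28 ± 0.55, 9.13 ± 0.11 and 7.47 ± 0.16 on the log2 scale (SD, n = 3 each). Normal mock and diabetic mcIRBP overlapped at the low end, and the other neighbouring groups were apart.

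Tlr2, the receptor for bacterial lipoproteins, lay near the floor on many arrays. Its raw intensities were 62, 93 and 52 on normal mock, 104, 129 and 75 on normal mcIRBP, 79, 133 and 87 on diabetic mock and 43, 49 and 36 on diabetic mcIRBP arrays. It was above the floor on 0, 2, 3 and 0 of 3 arrays in these groups, so normal mock and diabetic mcIRBP gave only an upper limit. The normalized group means were 5.83 ± 0.07, 6.49 ± 0.13, 6.38 ± 0.07 and 5.94 ± 0.12 (log2, SD, n = 3 each). Normal mcIRBP and diabetic mock formed a higher, overlapping pair, and normal mock and diabetic mcIRBP a lower, overlapping pair.

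Of the uptake receptors, Mrc1 was above the floor on 11 of 12 arrays and Cd163 on 4. Mrc1 had raw intensities of 88, 188 and 136 on normal mock, 353, 857 and 230 on normal mcIRBP, 518, 1020 and 511 on diabetic mock and 102, 91 and 57 on diabetic mcIRBP arrays. Its normalized group means were 7.70 ± 0.60, 8.62 ± 0.27, 8.37 ± 0.06 and 6.66 ± 0.09 (log2, SD, n = 3 each). On this scale the diabetic mcIRBP arrays were lowest and apart from all others, and normal mcIRBP and diabetic mock overlapped at the top. Relative to the floor, diabetic mcIRBP (1.49 to 2.66 times) and normal mock (1.44 to 2.39 times) overlapped. Cd163 had raw intensities of 60, 79 and 54, then 66, 113 and 68, then 77, 163 and 81, then 38, 38 and 37 in the same order of groups. It was above the floor on 0, 1, 3 and 0 of 3 arrays, and its normalized means were 5.76 ± 0.08, 6.15 ± 0.13, 6.39 ± 0.15 and 5.82 ± 0.01 (log2, SD, n = 3 each). Only the diabetic mock arrays were all above the floor for Cd163.

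For the general markers Cd68 and Emr1 the normal mock arrays were all below the floor threshold and the diabetic mock arrays all above it. The Cd68 probe with the higher mean over all arrays (mMC007570), which stands for the gene below, had raw intensities of 66, 101 and 60 on normal mock, 151, 145 and 73 on normal mcIRBP, 256, 457 and 268 on diabetic mock and 122, 118 and 82 on diabetic mcIRBP arrays. Its normalized means were 6.32 ± 0.13, 6.70 ± 0.46, 7.53 ± 0.09 and 7.05 ± 0.14 (log2, SD, n = 3 each), with diabetic mock apart and the other neighbouring groups overlapping. The other Cd68 probe (mMR029318) had means of 6.26 ± 0.38, 7.13 ± 0.28, 7.35 ± 0.09 and 6.74 ± 0.06 (log2, SD, n = 3 each). The probes differed in order, since normal mcIRBP stood above diabetic mcIRBP on the second probe and overlapped it on the first. Emr1 had raw intensities of 63, 94 and 54, then 86, 293 and 94, then 138, 262 and 130, then 65, 65 and 44 in the same order of groups. Its normalized means were 5.88 ± 0.10, 6.90 ± 0.53, 6.84 ± 0.07 and 6.31 ± 0.01 (log2, SD, n = 3 each), and it was above the floor on 0, 3, 3 and 2 of 3 arrays. Normal mock was lowest, diabetic mcIRBP next and apart from it, and the other groups overlapped above both.

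Lyzs, the secreted enzyme of the set, had raw intensities of 97, 106 and 87 on normal mock, 193, 574 and 143 on normal mcIRBP, 362, 821 and 325 on diabetic mock and 107, 117 and 58 on diabetic mcIRBP arrays. It was above the floor threshold on 1, 3, 3 and 2 of 3 arrays in these groups. Its normalized means were 7.07 ± 0.25, 7.87 ± 0.42, 7.94 ± 0.12 and 6.79 ± 0.19 (log2, SD, n = 3 each). Normal mcIRBP and diabetic mock overlapped above an overlapping pair of normal mock and diabetic mcIRBP. The probe of its neighbour Lyz1 (Lyz on the array) had means of 6.37 ± 0.14, 7.04 ± 0.33, 6.77 ± 0.20 and 6.06 ± 0.18 (log2, SD, n = 3 each). For both lysozyme probes normal mcIRBP and diabetic mock were the higher groups.

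In normal mice 5 of the 7 genes rose with mcIRBP, namely Cd14, Emr1, Cd163, Lyzs and Tlr2, of which Emr1, Cd163 and Tlr2 turned to lower values under a floor-subtracted scaling (-0.31, -1.68 and -1.06). A gene was called by limma's moderated test at a Benjamini-Hochberg adjusted p under 0.05 over all probes, which 6.34% of probes passed in this comparison in either direction, 3.57% as higher and 2.77% as lower. The floor-subtracted scaling took off each array's floor and set values below the floor threshold to the threshold minus the floor. On normal mock replicate 1, for example, Cd68, Emr1, Cd163 and Tlr2 all held the set value of -2.47 (log2). A sign that turned for such genes rests on set values and does not show a measured rise or fall. Under that scaling the median of all probes moved by -1.97 in this comparison. Most probes lay below the threshold, so shifts of the median are steps between set values. The shifts of that median in the other comparisons were 1.69 for mcIRBP in diabetic mice, 3.66 for the difference between the effects, -2.92 for diabetic mock against normal mock, 0.73 for diabetic mcIRBP against normal mcIRBP and 0.96 for normal mcIRBP against diabetic mock. The 3 genes whose sign turned were below the floor on all normal mock arrays, so no fold is given for them. The median log2 fold change was 0.80 over the 7 genes and 0.00 over all probes.

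Cd14 rose in normal mice by 0.88 on the log2 scale (SE 0.22, adjusted p = 0.0414), a 1.84-fold difference, and its sign held under every scaling tried. Its call was lost when any of 9 of the 12 arrays was left out, with adjusted p from 0.0503 to 0.0955. Lyzs rose by 0.80 (SE 0.20, adjusted p = 0.0423), or 1.74-fold, and its call was lost without any of 10 arrays, with adjusted p from 0.0503 to 0.116. Both are therefore near the threshold. Tlr2 gave 0.66 (SE 0.08, adjusted p = 0.000924), Emr1 1.02 (SE 0.20, adjusted p = 0.0149) and Cd163 0.39 (SE 0.08, adjusted p = 0.0232). The Cd163 call was lost without normal mock replicate 2 (adjusted p = 0.07) or normal mcIRBP replicate 2 (adjusted p = 0.0549), while Tlr2 and Emr1 passed without each array.

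Mrc1 stood 0.92 higher (log2, SE 0.25, adjusted p = 0.0571) in normal mice and passed the threshold when any of the normal mock arrays was left out (adjusted p 0.0287 to 0.0457). The representative Cd68 probe did not pass (0.38, SE 0.19, adjusted p = 0.278), whereas the other was at least 1.08-fold higher with mcIRBP (0.87, SE 0.18, adjusted p = 0.0172). Groups were apart on all arrays, with mcIRBP higher, for 6 of the 7 genes, compared with 10.4% of all probes higher on all arrays and 8.3% lower. Under median scaling none of the 7 was called in normal mice, with log2 fold changes from 0.39 to 1.74 and adjusted p from 0.146 to 0.337. The call in normal mice thus depended on the scaling, while the sign of Cd14, Mrc1 and Lyzs did not under the alternatives run. Under the floor-subtracted scaling Lyzs held set values on normal mock replicates 2 and 3 (-1.6 and -1.51), where it was below the threshold.

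Liver RNA markers moved in this comparison too: all 15 fell with mcIRBP, at a median log2 fold change of -5.78, with summed intensities of 55800 to 59000 on normal mock against 1070 to 1130 on normal mcIRBP arrays. Adipocyte markers summed to 20200 to 27100 and 40200 to 51000, and 3 of 12 rose (median 0.49). Their part in the macrophage markers' result was not tested. Kupffer cells are the macrophages of liver, and of their 8 markers 5 (C6, Cd5l, Clec4f, Marco and Timd4) were above the floor on none of the normal mock arrays, while 2 were above it on all 3. The summed Kupffer markers were 1160 to 1530 on normal mock and 1200 to 1850 on normal mcIRBP arrays. That sum joins genes that moved in opposite directions. Id3, the brightest of them, had group means of 9.12 on normal mock and 9.89 on normal mcIRBP arrays (log2). Slc40a1 and Vsig4 had lower means with mcIRBP (7.86 to 6.39 and 7.37 to 6.43). Of the 8 markers 1 was called higher and 0 lower, with a median log2 fold change of -0.11. The part of liver macrophages in the result was not tested.

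In diabetic mice 5 of the 7 genes fell with mcIRBP, namely Cd14, Mrc1, Lyzs, Cd163 and Tlr2, of which Cd163 and Tlr2 turned sign under the floor-subtracted scaling (0.16 and 0.20). Of all probes 6.71% were called in either direction, 3.69% as higher and 3.02% as lower. Mrc1 fell by 1.72 on the log2 scale (SE 0.25, adjusted p = 0.00168), a 3.29-fold difference, and Cd14 fell by 1.66 (SE 0.22, adjusted p = 0.000948), or 3.17-fold. Lyzs fell by 1.15 (SE 0.20, adjusted p = 0.00549), or 2.21-fold. These 3 calls held under every alternative run, the floor-subtracted scaling included (-2.28, -1.81 and -1.51). Under that scaling Mrc1 and Lyzs held the set value of -2.22 on diabetic mcIRBP replicate 3. Cd163 was at least 1.02-fold lower (-0.57, SE 0.08, adjusted p = 0.00206) and Tlr2 at least 1.01-fold lower (-0.44, SE 0.08, adjusted p = 0.00872), both below the floor on all diabetic mcIRBP arrays.

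Emr1 (-0.54, SE 0.20, adjusted p = 0.207) and Cd68 (-0.48, SE 0.19, adjusted p = 0.227) did not pass in diabetic mice, nor did the other Cd68 probe (-0.61, adjusted p = 0.0849). Emr1 and Cd68 did pass with only the groups compared (adjusted p 0.000755 and 0.0184) and with array weights (0.00058 and 0.000604). Cd68 also passed with median scaling (0.0173) and Emr1 with the deposited normalized intensity (0.0275). Without normal mcIRBP replicate 1 Cd68 and Emr1 passed (adjusted p 0.0197 and 0.0227), and without normal mcIRBP replicate 2 Emr1 passed (adjusted p = 0.0268). These arrays enter this comparison through the joint normalization, the shared estimate of the spread and the adjustment over all probes. All 7 genes were lower on every diabetic mcIRBP array than on every diabetic mock array, which held for 17.3% of all probes, with 18.1% apart in the other direction. The median log2 fold change was -0.57 over the 7 genes and 0.01 over all probes.

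Epididymis and adipocyte markers moved with this comparison. Summed epididymis markers were 2550 to 2730 on diabetic mock and 76800 to 82700 on diabetic mcIRBP arrays, and all 15 rose (median 4.94). Summed adipocyte markers were 43100 to 45700 and 6020 to 6640, and 9 of 12 fell (median -2.45), among them Adipoq, the hormone adiponectin (-2.95, adjusted p = 3.18e-05). The summed 7 macrophage markers were 1560 to 1670 and 708 to 732. The part of the tissue markers in the fall of the macrophage genes was not tested.

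**Figure D2:**
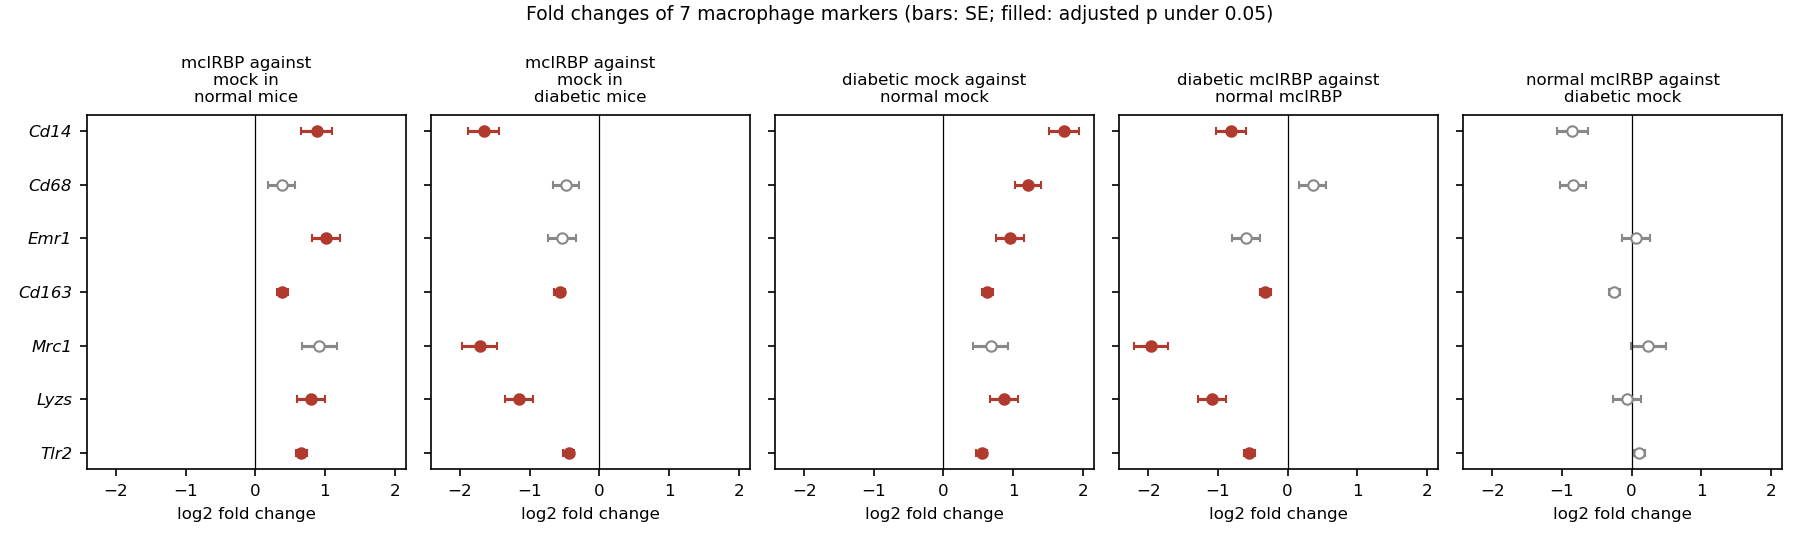
Log2 fold change (horizontal axis) of each macrophage marker (vertical axis) in 5 comparisons of group means, with bars for 1 SE and filled points for adjusted p under 0.05. Values with mcIRBP lie right of 0 in normal mice and left of 0 in diabetic mice, although Cd163 and Tlr2 turn sign in both, and Emr1 and Cd68 in normal mice, under the floor-subtracted scaling.

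The difference between the mcIRBP effects, diabetic minus normal, was tested as an interaction and called for 6 of 7 genes as lower, against 9.22% of all probes in either direction, 4.31% as higher and 4.91% as lower. It was -2.64 for Mrc1 (SE 0.35, adjusted p = 0.000831), -2.55 for Cd14 (SE 0.31, adjusted p = 0.000458) and -1.95 for Lyzs (SE 0.28, adjusted p = 0.00153). These 3 kept their sign under the floor-subtracted scaling (-3.34, -2.86 and -2.43). The difference was -1.56 for Emr1 (SE 0.29, adjusted p = 0.00668), which kept its sign there at -0.46 (adjusted p = 0.562). It was -1.10 for Tlr2 (SE 0.12, adjusted p = 0.000187) and -0.96 for Cd163 (SE 0.12, adjusted p = 0.000566), which turned to 1.26 and 1.84 under that scaling. For Cd68 it was -0.86 (SE 0.27, adjusted p = 0.0802), turning to 0.15, and -1.48 on the other probe (SE 0.25, adjusted p = 0.00431). No call among the 6 was lost without any single array. The effect in each disease state rests on its own mock arrays, and the liver markers of normal mock and the epididymis markers of diabetic mcIRBP enter it in full (15 of 15 called in each list). Of the adipocyte markers 9 of 12 were called lower in this difference, at a median of -2.64, and the part of these lists in it was not tested.

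**Figure D3:**
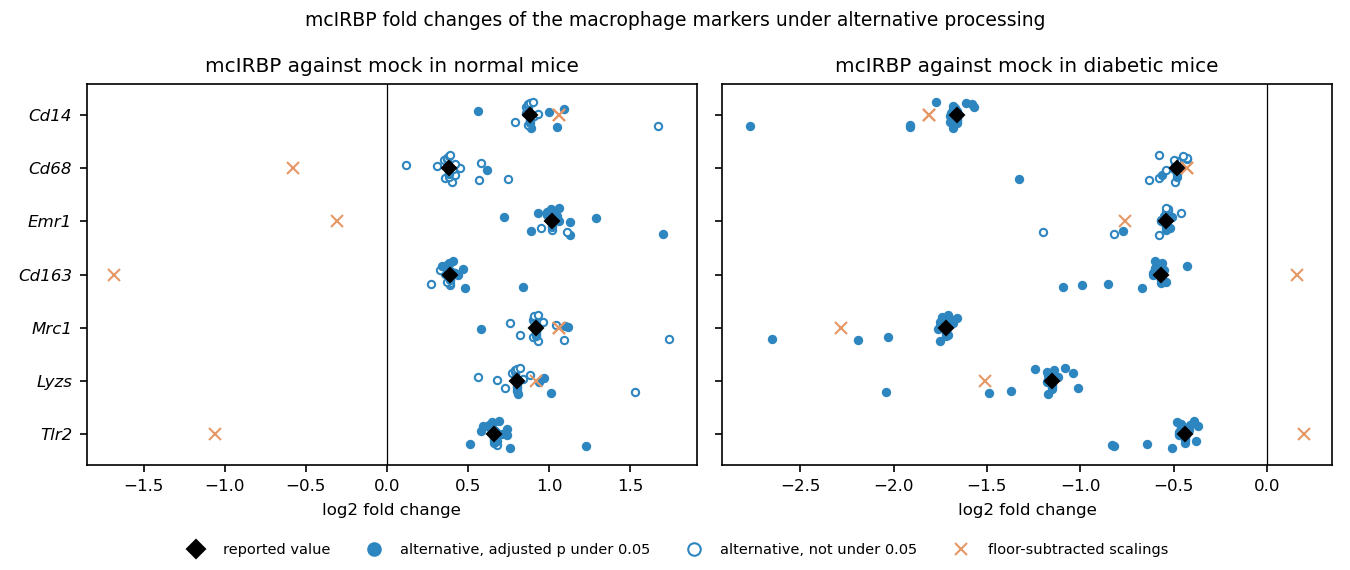
Log2 fold change of mcIRBP against mock (horizontal axis) for each macrophage marker (vertical axis) in normal and diabetic mice, as reported (diamonds), under each alternative processing (circles, filled for adjusted p under 0.05) and under the floor-subtracted scalings (crosses). Crosses for Cd68, Emr1, Cd163 and Tlr2 in normal mice and for Cd163 and Tlr2 in diabetic mice lie on the other side of 0 from the reported value, and those of Cd14, Mrc1 and Lyzs lie on the same side.

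Between the untreated groups, 6 of 7 genes were called higher in diabetic than in normal mice, against 8.71% of all probes in either direction, 4.73% as higher and 3.98% as lower. Cd14 was 3.32-fold higher (log2 fold change 1.73, SE 0.22, adjusted p = 0.000848) and Cd68 at least 1.43-fold higher (1.21, SE 0.19, adjusted p = 0.00329). Lyzs was 1.83-fold higher (0.87, SE 0.20, adjusted p = 0.0249), a call lost without normal mock replicate 2 or any of the diabetic mock arrays (adjusted p 0.0697 to 0.0939). Emr1 (0.96, adjusted p = 0.0175), Cd163 (0.63, adjusted p = 0.00128) and Tlr2 (0.55, adjusted p = 0.00293) were called without a fold and turned to -0.27, -1.39 and -1.43 under the floor-subtracted scaling. The Emr1 call was lost without any of the diabetic mock arrays (adjusted p 0.0641 to 0.0751). Mrc1 did not pass (0.68, SE 0.25, adjusted p = 0.122). The arrays of all 7 genes were apart, with diabetic mock higher, as for 19.1% of all probes, with 18.7% apart in the other direction. Epididymis markers were higher in diabetic mock for 10 of 15 genes (median 1.17), and liver markers lower for 15 of 15 (median -5.91). Disease state, sex and these tissue markers cannot be told apart here.

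Between the treated groups, 5 of 7 genes were called lower in diabetic mice, against 11.7% of all probes in either direction, 6.07% as higher and 5.65% as lower. Mrc1 was 3.89-fold lower (-1.96, SE 0.25, adjusted p = 0.000571) and Lyzs 2.11-fold lower (-1.08, SE 0.20, adjusted p = 0.00614). Tlr2 was at least 1.10-fold lower (-0.55, SE 0.08, adjusted p = 0.00174). Cd14 (-0.81, adjusted p = 0.0385) lost its call without any of 8 arrays (adjusted p 0.0503 to 0.117). Cd163 (-0.32, adjusted p = 0.0343) lost it without any of 6 arrays (0.0612 to 0.106) and turned to 0.45 under the floor-subtracted scaling. Cd68 (0.36, adjusted p = 0.279; -0.01 as the mean of both probes) and Emr1 (-0.60, adjusted p = 0.0945) did not pass, and without normal mcIRBP replicate 1 both did (0.61, adjusted p = 0.00767, and -0.86, adjusted p = 0.00253). Relative to the floor the treated groups overlapped for Cd14 (2.40 to 10.9 and 2.82 to 4.43 times) and Lyzs (2.22 to 7.30 and 1.51 to 3.02 times). The same held for Tlr2 (1.16 to 1.75 and 0.94 to 1.26 times), Cd68 (1.13 to 2.53 and 2.14 to 3.18 times) and Emr1 (1.44 to 3.73 and 1.15 to 1.70 times). Under median scaling the calls of Lyzs (adjusted p = 0.239), Tlr2 (0.128), Cd14 (0.351) and Cd163 (0.458) were lost, as they were with the floor-subtracted scaling (adjusted p 0.115, 0.778, 0.201 and 0.452), and Mrc1 passed under both. On the normalized scale, for 6 of the 7 genes diabetic mcIRBP was lower on all arrays, as for 17.8% of all probes, with 15.2% apart in the other direction. Adipocyte markers were lower in diabetic mcIRBP for 9 of 12 genes (median -2.55) and epididymis markers higher for 15 of 15 (median 6.18), and their part was not tested. Disease state and sex cannot be told apart here.

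The last comparison set normal mcIRBP against diabetic mock, whose summed adipocyte markers overlapped (40200 to 51000 and 43100 to 45700). By limma 0 of the 7 genes were called between them, against 1.37% of all probes (0.782% higher and 0.585% lower), and 3 (Cd14, Cd68 and Cd163) had an unadjusted p under 0.05. Cd14 gave -0.85 (log2, SE 0.22, adjusted p = 0.105) and passed without normal mcIRBP replicate 2 (-1.17, adjusted p = 0.000746). Cd68 gave -0.84 (SE 0.19, adjusted p = 0.0664) and passed without normal mcIRBP replicate 1 (-1.09, adjusted p = 0.00178). Both were lower on all normal mcIRBP arrays, as were 12.6% of all probes, with 15.3% higher. The other Cd68 probe gave only -0.22 (SE 0.18, adjusted p = 0.659), and its normalized arrays overlapped. The other 5 genes lay between -0.25 (Cd163) and 0.24 (Mrc1). Relative to the floor, Mrc1 was 3.57 to 10.9 times as high in normal mcIRBP and 12.9 to 25.8 times in diabetic mock, and Lyzs 2.22 to 7.30 and 8.22 to 20.8 times. Cd163 (1.05 to 1.44 and 1.94 to 4.12 times) and Tlr2 (1.16 to 1.75 and 1.99 to 3.36 times) differed likewise. On that scale Mrc1, Lyzs, Cd163 and Tlr2 were thus lower on all normal mcIRBP arrays where the normalized values overlapped. Cd14 and the representative Cd68 probe were lower on both scales, and Emr1 overlapped on both. Of the epididymis markers 10 of 15 were lower in normal mcIRBP (median -1.29), and 1 of 12 adipocyte markers, the leptin gene Lep, was higher (2.62, adjusted p = 0.00131). Their part was not tested, and treatment, disease state and sex cannot be told apart here. The comparisons share arrays of the same 4 groups, so their values stand side by side and are not independent.

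The other macrophage and monocyte markers were 34 genes on the array, of which 11.8% were called in normal mice (6.34% of all probes) and 29.4% in diabetic mice (6.71%). In normal mice 4 rose and 0 fell with mcIRBP (median log2 fold change 0.20, or -0.87 with the floor-subtracted scaling). They were Mgl1, a galactose-binding lectin (1.46, adjusted p = 0.0144), Fcgr1, the high-affinity receptor for antibody (0.52, adjusted p = 0.00238), the signalling adaptor Tyrobp (0.52, adjusted p = 0.028) and the inhibitory receptor Sirpa (0.79, adjusted p = 0.0304). Fcgr1, Tyrobp and Sirpa were below the floor on every normal mock array, so no fold is given, and Fcgr1 and Sirpa turned sign under the floor-subtracted scaling. In diabetic mice 8 fell and 2 rose (median -0.31, or 0.08 with the floor-subtracted scaling), and no called gene of the list turned sign under it. Fcgr3, another receptor for antibody, fell by 1.36 (SE 0.23, adjusted p = 0.00521), and Folr2, a folate receptor of resident macrophages, was at least 1.64-fold lower (adjusted p = 0.000478). Named after their values were seen, the complement genes C1qa and C1qb fell by 0.84 and 1.30 (adjusted p = 0.0274 and 0.0351), and Csf1r, the receptor for macrophage growth factor, fell by 0.63 (adjusted p = 0.0336).

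The list did not move as 1 block. Cd52, a surface glycoprotein of leukocytes that epididymal epithelium is also known to make, rose in diabetic mice by 4.08 (SE 0.12, adjusted p = 1.09e-08), from a mean of 6.72 to 10.8 on the log2 scale. Gpnmb, a glycoprotein of lipid-laden macrophages, rose by 0.47 (SE 0.09, adjusted p = 0.00854). Summed over the 34 genes the intensity was 5620 to 5720 on diabetic mock and 5570 to 5830 on diabetic mcIRBP arrays, overlapping ranges. Without Cd52, left out after its values were seen, the other 33 genes summed to 5520 to 5620 and 3880 to 3980. That gap rests on leaving out the gene of the list that rose most, so it is no separate result beside the summed 7 genes. Between the untreated groups 6 of the 34 (17.6%) were higher in diabetic mice and 0 lower (median 0.32, or -0.44 with the floor-subtracted scaling). Of all probes 8.71% were called there, 4.73% as higher and 3.98% as lower. Of the 6, Cd52, Gpnmb, Sirpa and Tyrobp turned sign under that scaling, and Fcgr3 stood at 1.06 (SE 0.23, adjusted p = 0.0215). Between the treated groups 10 were lower in diabetic mice and 3 higher, or 38.2% (median -0.19, or 0.17 with that scaling). Of all probes 11.7% were called between the treated groups, 6.07% as higher and 5.65% as lower. Mgl1 was lower there (-2.18, SE 0.29, adjusted p = 0.000819), and Vsig4, a complement receptor of resident macrophages, was higher (2.03, SE 0.30, adjusted p = 0.00171).

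**Figure D4:**
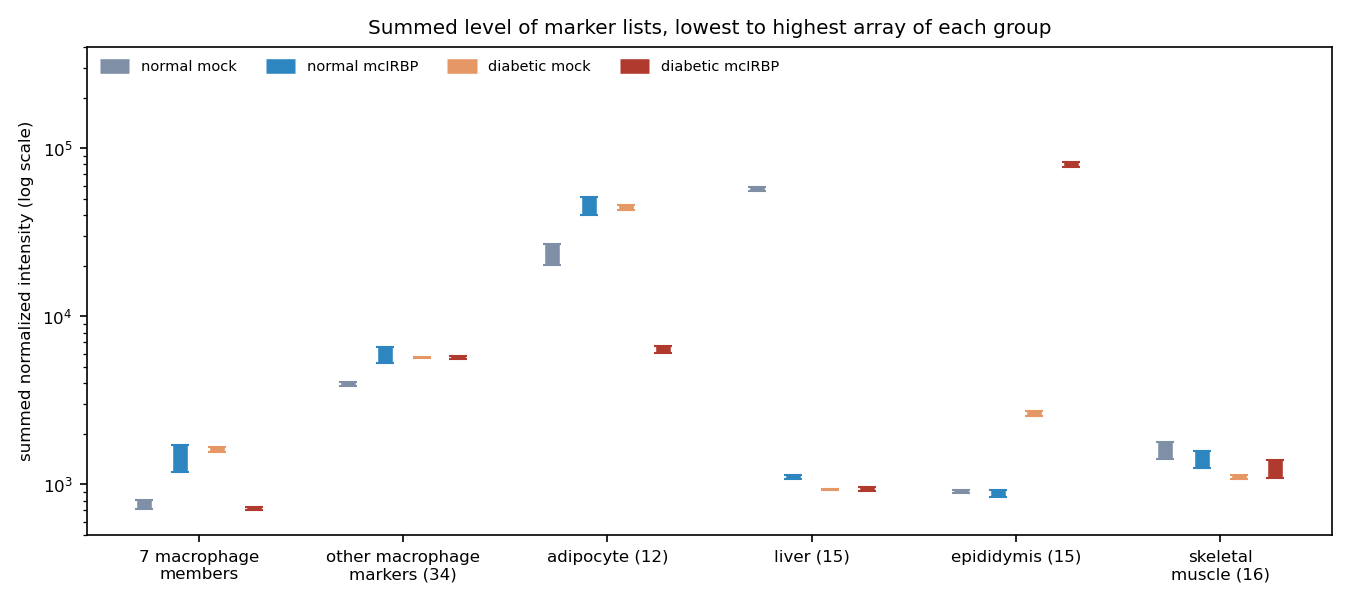
Summed normalized intensity (vertical axis, log scale) of marker lists (horizontal axis, with the number of genes measured), each bar running from the lowest to the highest of the 3 arrays of a group. The 7 macrophage members reach 1180 to 1720 in normal mcIRBP and 1560 to 1670 in diabetic mock against 716 to 807 and 708 to 732 in the other groups, and liver and epididymis markers stand out in normal mock and diabetic mcIRBP.

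Genes acting with Tlr2 and Cd14 in bacterial sensing (20 measured) were called at 20% in normal mice, where 6.34% of all probes were, and at 10% in diabetic mice, where 6.71% were. In normal mice 4 rose and 0 fell (median 0.42, or -0.78 with the floor-subtracted scaling, under which Il6, Nfkb1 and Tlr1 turned sign). They were Nfkb1 and Rela, subunits of NF-kB (0.98, adjusted p = 0.0168, and 1.19, adjusted p = 0.0413, at least 1.41-fold for Rela), Tlr1, which pairs with TLR2 (0.52, adjusted p = 0.0348), and the cytokine Il6 (0.55, adjusted p = 0.0164). All 4 were below the floor threshold on every normal mock array. Tlr1 and Il6 were above it on only 1 normal mcIRBP array each, and Il6 on 0 diabetic arrays. In diabetic mice 1 rose and 1 fell (median -0.09, or 0.34 with the floor-subtracted scaling). The kinase Irak1 rose by 0.91 (SE 0.21, adjusted p = 0.0278), and Cd36, a fatty acid and lipoprotein receptor that fat cells also express, was at least 1.90-fold lower (-1.32, SE 0.19, adjusted p = 0.00181). The difference between the effects was called for 3 genes (15%), all below 0. Of all probes 9.22% were called in it, 4.31% as higher and 4.91% as lower. The 3 genes were Cd36 (-1.77), the inhibitory kinase Irak3 (-1.08) and Nfkb1 (-1.17), of which Nfkb1 turned sign with the floor-subtracted scaling.

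Of 16 genes known from macrophage activation states, 2 rose and 2 fell in normal mice (median 0.13, or -1.97 with the floor-subtracted scaling, as for all probes). The called share was 25% there and 18.8% in diabetic mice, against 6.34% and 6.71% of all probes. Tgm2, a transglutaminase, rose by 0.78 (SE 0.11, adjusted p = 0.00211), and Il4ra, the receptor subunit for IL-4, was at least 1.92-fold higher (adjusted p = 0.0333). Arg1, an enzyme of alternatively activated macrophages and of the urea cycle in liver, was at least 7.37-fold lower (adjusted p = 2.4e-07), beside the fall of all 15 liver markers. The other called gene, Il1rn (-0.25, adjusted p = 0.0266), was below the floor on both sides. In diabetic mice 3 fell and 0 rose (median -0.11). Retnla, a secreted protein of alternatively activated macrophages that white fat also makes, fell by 2.30 (SE 0.57, adjusted p = 0.0387), and Tgm2 fell by 0.98 (SE 0.11, adjusted p = 0.000332), while Il10 (-0.18, adjusted p = 0.0377) was below the floor on both sides and turned sign with that scaling.

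Lysosome and endosome genes share the compartment of CD68. Of 14 measured, 0 rose and 1 fell in each effect of mcIRBP, with medians of -0.04 in normal and -0.19 in diabetic mice. That share of 7.14% was near the 6.34% and 6.71% of all probes. The acid lipase gene Lipa fell in normal mice (-0.62, SE 0.15, adjusted p = 0.0412; its sign turned under median scaling) and the protease gene Ctsz in diabetic mice (-1.28, SE 0.16, adjusted p = 0.000659). Of 11 neutrophil markers 0 were called in normal mice, and in diabetic mice Ltf rose (1.37, SE 0.14, adjusted p = 0.00015) and Csf3r fell (-0.32, adjusted p = 0.021), turning sign under the floor-subtracted scaling. Of 9 lymphocyte markers 0 were called in either effect of mcIRBP, and all 9 were above the floor on none of the normal mock arrays. Cd3d, Cd4, Cd5, Cd79b and Ms4a1 were above it on none of the 12 arrays. Their summed intensity was 549 to 577, 551 to 583, 569 to 633 and 555 to 624 in the 4 groups, in the order used above. Of 8 housekeeping genes 0 were called in either effect (medians 0.09 and -0.17, or -1.02 and 0.52 with the floor-subtracted scaling).

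The members varied in how closely they followed one another over the 12 arrays. Pearson's r between their normalized log2 values ranged from 0.011 for Cd68 with Mrc1 to 0.958 for Cd14 with Cd163. The arrays share 4 groups and 1 normalization, so these correlations describe the groups' pattern and carry no p. By its representative probe Cd68 followed the other members least, with its highest r at 0.629 (Cd14). On that probe the diabetic mcIRBP mean of 7.05 lay above the normal mcIRBP mean of 6.70. The other Cd68 probe had the reverse order (6.74 and 7.13), and its r with the other members is not given. Emr1, Mrc1, Lyzs and Tlr2 had their highest r with another member at 0.828 (Lyzs), 0.809 (Lyzs), 0.882 (Cd163) and 0.819 (Cd163).

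Among 8202 other genes above the floor on at least 3 arrays, the closest to Cd14 over 12 arrays were Ranbp9 (r = 0.962), Cd163 (0.958) and Col6a2 (0.951). Those closest to Cd163 were Ranbp9 (0.974), Cd14 (0.958) and Ffar2 (0.939). Each of these members was thus the second closest gene of the other. Both were highest in diabetic mock. Cd163 was above the floor on 0, 1, 3 and 0 arrays of the 4 groups and Tlr2 on 0, 2, 3 and 0, in the order used above. These 2 genes passed the filter only with the diabetic mock arrays counted, and most of their other values lay below the floor threshold. Closest to Mrc1 were Heph (0.970), Dennd2a (0.970) and Wwtr1 (0.969), and closest to Lyzs were Rbp7 (0.968), S100a13 (0.955) and Timp4 (0.954). Closest to Tlr2 were Smurf2 (0.971), Col1a1 (0.948) and Tbc1d17 (0.945). Closest to Emr1 were 2010203O07Rik (0.980), Fbxo45 (0.971) and Rsrc2 (0.967), and closest to Cd68 were Med27 (0.984), Kcnj10 (0.956) and Patl1 (0.943).

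The mean normalized log2 level over the 7 genes spread most among the normal mcIRBP arrays. It was 7.18, 7.55 and 7.12 on its 3 arrays, with 7431, 8248 and 4731 probes above the floor. The level was 6.54, 6.59 and 6.57 on normal mock, 7.46, 7.57 and 7.51 on diabetic mock and 6.57, 6.59 and 6.56 on diabetic mcIRBP arrays. Normal mcIRBP replicate 2 held the highest value of its group for Cd14, Emr1, Cd163, Mrc1 and Lyzs, and replicate 1 for Cd68 and Tlr2. The mean correlation of the arrays of a group over all probes was 0.903, 0.879, 0.985 and 0.950, taking the groups in the same order.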

How the data were processed

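Each array file holds, per the file headers, a deposited raw intensity and a deposited normalized intensity per probe on a linear scale. The submitters' processing notes name limma with no version, and no source used here gives the other steps. The normalized intensity had been scaled within each disease state, so the raw intensity was used. With limma 3.58.1 (R 4.3.3), the deposited intensities of all 12 arrays were background corrected by normexp (offset 50), brought to 1 distribution by quantile normalization and converted to log2. A model with 1 mean per group (8 residual degrees of freedom) was fitted on 29922 probes with eBayes and Benjamini-Hochberg adjustment at 0.05. The model was tested on simulated data in which a small set of probes changed in 1 group. That simulation held none of the group differences in tissue markers or probes detected, so it does not show how the model handles them. Symbols come from the platform annotation (21020 probes with 1 symbol, 8902 with none), positions and promoter sequences from RefSeq.

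A fold is given as at least a bound where a group was below the floor threshold on all its arrays. The text names all 7 members by their probe of highest mean, up to 4 called genes of each other list per comparison by lowest adjusted p, and the 3 genes most alike each member; exceptions are stated. The members and lists were chosen with earlier results of these data known. Alternatives were another normexp offset, no background correction, median scaling, the deposited normalized intensity, fits on the groups compared, array weights, a trended robust prior, a filter on dim probes, the mean of all probes, a replicate block and leaving out each array. A floor-subtracted scaling, in all probes and in measured probes only, was added after seeing the data. It set values below an array's floor threshold to the threshold minus the floor, so its signs and counts for dim probes rest on set values. Of 18 pairs of arrays with the same replicate number in different groups, 4 had deviations correlated over 0.1 (r -0.337 to 0.243), so the numbers were not taken to pair arrays. No arrays were identical (highest r 0.987). The number of arrays limits precision, and probe sequences and scan dates were not used here.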

Additional observations from a re-analysis of the deposited data

Results flagged for a closer look

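The difference between the mcIRBP effects in diabetic and normal mice passed limma's test for 6 of the 7 macrophage markers, and these are the results a reader may want to examine again. On the log2 scale it was -2.55 for Cd14, -2.64 for Mrc1, -1.95 for Lyzs, -1.56 for Emr1, -1.1 for Tlr2 and -0.96 for Cd163. The signs of Tlr2 and Cd163 turned under the floor-subtracted scaling (1.26 and 1.84), which rests on set values where these genes were below the floor threshold. The groups compared also differed in sex, liver markers, epididymis markers and adipocyte markers (9 of 12 lower in the difference, median -2.64), and the part of these in the differences was not tested.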

How the results depend on the processing

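Of 950 values over 24 alternatives 812 kept their direction and their side of the threshold, 84 kept the direction and lost the call, 32 gained a call and 22 turned sign. The number of the 7 genes called in normal mice was 5 and became 0 with median scaling, 2 with the deposited normalized intensity, 1 when only the groups compared were fitted, 1 with array weights, 3 with the trended robust prior and 1 (as lower) with the floor-subtracted scaling. In diabetic mice it was 5 and became 6 with median scaling and 6 with the deposited normalized intensity. It became 7 with only the groups compared, 7 with array weights and 3 with the floor-subtracted scaling. The difference went from 6 lower to 7 lower with median scaling, the deposited normalized intensity, array weights, the filter on dim probes and the mean of all probes. Under the floor-subtracted scaling the difference became 4 (3 lower, 1 higher). Diabetic mock against normal mock went from 6 to 7 with median scaling and 3 (1 higher, 2 lower) with the floor-subtracted scaling. Diabetic mcIRBP against normal mcIRBP went from 5 to 1 with median scaling, 2 with only the groups compared, 3 with the trended robust prior and 1 with the floor-subtracted scaling. Normal mcIRBP against diabetic mock went from 0 to 2 with median scaling, 2 with array weights and 1 with the filter on dim probes. Leaving out each array gave 3 to 5 in normal mice, 5 to 7 in diabetic mice, 6 to 7 for the difference, 4 to 6 for diabetic mock against normal mock, 3 to 6 for diabetic mcIRBP against normal mcIRBP and 0 to 1 for normal mcIRBP against diabetic mock. With the replicate number as a block the counts were 3, 5, 6, 6, 4 and 0 in the same order, although the numbers were not taken to pair the arrays. The causes of these changes were not tested.

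The floor-subtracted scaling gave values below the floor threshold a fixed value per array. Signs that turned under it and its counts over all probes rest partly on such values. Under the floor-subtracted scaling mcIRBP in normal mice gave Cd68 -0.58, Emr1 -0.31, Cd163 -1.68 and Tlr2 -1.06. In diabetic mice it gave Cd163 0.16 and Tlr2 0.2. The difference gave Cd68 0.15, Cd163 1.84 and Tlr2 1.26. Diabetic mock against normal mock gave Emr1 -0.27, Cd163 -1.39 and Tlr2 -1.43, diabetic mcIRBP against normal mcIRBP gave Cd163 0.45, and normal mcIRBP against diabetic mock gave Emr1 -0.04, as it did on measured probes only. In that last comparison median scaling turned Emr1 (-0.49), Mrc1 (-0.64) and Tlr2 (-0.27), array weights turned Emr1 (-0.01), and leaving out arrays moved Emr1 from -0.19 (without normal mcIRBP replicate 2) to 0.33 and Lyzs from -0.3 to 0.1 (without replicate 1). Averaging both probes turned Cd68 between the treated groups (-0.01). Over all probes, calls in normal mice went from 1898 (1069 higher, 829 lower) to 292 with median scaling (31 higher, 261 lower), 1012 with the deposited values, 559 with only the groups compared, 622 with array weights and 25268 with the floor-subtracted scaling (122 higher, 25146 lower). In diabetic mice they went from 2009 (1104 higher, 905 lower) to 4050 with median scaling (783 higher, 3267 lower), 3956, 4272, 6957 and 23064 (22458 higher, 606 lower). The difference went from 2760 (1290 higher, 1470 lower) to 6297 (1403 higher, 4894 lower) and 25824 (25407 higher, 417 lower). Diabetic mock against normal mock went from 2606 (1415 higher, 1191 lower) to 15092 (10073 higher, 5019 lower) and 25273 (232 higher, 25041 lower). Diabetic mcIRBP against normal mcIRBP went from 3508 (1816 higher, 1692 lower) to 1407 (1116 higher, 291 lower), 2138 with only the groups compared and 1596 (1254 higher, 342 lower). Normal mcIRBP against diabetic mock went from 409 (234 higher, 175 lower) to 5942 (1850 higher, 4092 lower), 687 with array weights, 228 with the replicate block and 193 with the floor-subtracted scaling (89 higher, 104 lower).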
